A study of Capra hircus with 2 samples.

Results

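miR-21 and miR-22 were followed through every small RNA tag of the goat mammary gland that carried their sequence, alone or joined to another miRNA. The 2 members give 4 of the 116 mature arms or seed families recognised here: miR-21-5p, miR-21-3p, miR-22-3p and miR-22-5p. They were chosen on measured values of these libraries, namely the joined tags that hold them, so the levels and joined counts given here are descriptions. Single tags were 18 nt or longer, started with an arm's first base or up to 2 bases into it, had no mismatch to the arm and ended no more than 3 bases beyond it. A joined tag had 36 to 44 nt and held at least 14 bases in a row of either miRNA. By this rule 387 distinct sequences of 305711 belonged to the members in lactation, of which 94 were single and 293 joined, and 122 of 259250 in involution, of which 104 were single and 18 joined. They carried 1.89% of the lactation reads and 2.06% of the involution reads.

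The lactation library came from mammary tissue taken on day 10 after parturition. The involution library came from tissue taken on day 5 after forced weaning at late lactation, which was day 218 after parturition. Each library was made from 1 pool of RNA of 5 dairy goats, with no genetic change or drug named in the labels. There is 1 library per stage, so no test between stages was possible, the spread between goats is unknown, and weaning cannot be told apart from the 2 dates after parturition.

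A miRNA is cut from a hairpin whose 2 arms can each give a mature strand, and the strand loaded into an Argonaute protein pairs with target mRNAs mainly through its seed, bases 2 to 8. miR-21-5p is abundant in many cells and is known for its induction in injured and inflamed tissue and for repressing PDCD4 and other brakes on growth and survival. miR-22-3p is a broadly expressed miRNA known for roles in cell senescence and in cardiac and metabolic regulation. The remaining arms, miR-21-3p and miR-22-5p, are the less abundant strands of the same hairpins in most tissues. In the goat RefSeq gene table (assembly ARS1.2) the genes MIR21 and MIR22 lie on the same chromosome with 238 genes between them, and MIR22 lies between TLCD2 and WDR81.

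The sequences below are those on which the levels and the joined tags turn, with T in place of U as in the files, 5′ to 3′, and capitals marking the seed. Each arm is the most abundant tag with its seed over both libraries, and all 4 arms had 22 nt. No seed is shared between the arms.
miR-21-5p: tAGCTTATcagactgatgttga
miR-21-3p: cAACAGCAgtcgatgggctgtc
miR-22-3p: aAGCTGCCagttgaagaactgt
miR-22-5p: aGTTCTTCagtggcaagcttta

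The lactation library held 18031615 clean tags and the involution library 7385833. Epithelial miRNAs, a check of the labelled tissue, were present in both stages, with all 4 seeds of that list above the level used here. They summed to 17245 and 21395 TPM, which here means tags per 1000000 clean tags. Most of this was the miR-200bc family, at 15212 and 11255 TPM (ratio 0.740). miR-375 (208 and 5039), the miR-141 family (ratio 2.60) and miR-205 (5.59) were higher in involution. The summed level of the 5 leukocyte seeds (miR-142-3p, miR-142-5p, miR-150, miR-223 and miR-342) was 231 in lactation and 1028 in involution. All 5 were at least 2-fold higher in involution, as were 44.3% of all miRNAs tested. When scaled by median-of-ratios factors 3 of 5 (miR-150, miR-223 and miR-342) were higher, against 35 of 103 miRNAs tested. The other marker lists had higher seeds too: 3 of 4 epithelial, 2 of 3 erythroid, 2 of 4 stromal, 1 of 2 endothelial and 1 of 2 muscle seeds. With median-of-ratios factors the epithelial and erythroid lists each had 2 seeds higher and 1 lower. The stromal list then had 2 higher and 0 lower, the endothelial list 1 and 1, and the muscle list 0 and 1. No marker of the leukocyte list was at 0, and its fewest tags were 256 in lactation and 356 in involution. Summed stromal markers stood at 310410 and 320861 TPM, nearly all of it miR-143 (309788 and 318808), while miR-145 (ratio 8.71) and miR-214 (11.6) were higher. Endothelial markers summed to 7584 and 7085, mainly miR-126-3p, while miR-126-5p was higher (4.18). Muscle markers summed to 1446 and 1088, mainly the miR-1 family, while miR-133 was higher (5.33). Erythroid markers summed to 923 and 3136. The part of these cell types in the differences below was not tested.

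miR-21-5p was among the most abundant miRNAs of the gland at both stages and was nearly equal between them. It gave 335992 tags in lactation, or 18633.5 TPM (95% exact Poisson interval 18570.5 to 18696.6), and 149656 in involution, or 20263 TPM (20160.0 to 20366). It ranked 6 of 116 in lactation and 5 of 116 in involution. All ranks given here compare 1 reference sequence per family. By all tags with the seed, miR-146 also stood above miR-21-5p in lactation (19460 against 18788 TPM). In involution the miR-30 family then did (219318 against 150889 tags). For miR-21-5p the ratio of involution to lactation was 1.09 (1.08 to 1.09, conditional Clopper-Pearson interval), or 0.12 on the log2 scale. This ratio fell below 1 when the libraries were scaled by median-of-ratios factors (0.613) or edgeR TMM factors (0.824). Intervals cover counting error only, since PCR copies of 1 molecule were not marked. In whole-tissue RNA, fewer cells of a type and less RNA per cell cannot be told apart.

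Its partner strand, miR-21-3p, was rare. It had 93 tags in lactation, or 5.16 TPM (4.16 to 6.32), and 30 in involution, or 4.06 TPM (2.74 to 5.80). Both values lie under the 10 TPM required for a call, and the interval of the ratio of 0.788 included 1 (0.504 to 1.20). With median-of-ratios factors the ratio was 0.444 (0.284 to 0.677) and with TMM factors 0.597 (0.382 to 0.910), so these intervals lay below 1. The 3p arm made up 0.0277% of miR-21 tags in lactation (0.0223 to 0.0339%, Clopper-Pearson) and 0.0200% in involution (0.0135 to 0.0286%). These intervals overlap, so no shift between the arms of miR-21 was detectable at this depth.

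Single miR-22 tags were far fewer than those of miR-21-5p, and both arms were higher in involution. miR-22-3p gave 1852 tags in lactation, or 103 TPM (98.1 to 107.5), and 1848 in involution, or 250.2 TPM (238.9 to 261.9), a ratio of 2.44 (2.28 to 2.60). miR-22-5p gave 72 tags in lactation, or 3.99 TPM (3.12 to 5.03), and 405 in involution, or 54.8 TPM (49.6 to 60.4), a ratio of 13.7 (10.7 to 17.9). miR-22-3p ranked 57 of 116 in lactation and 55 in involution, and miR-22-5p 100 and 81. The order of the 4 arms was miR-21-5p, miR-22-3p, miR-21-3p, miR-22-5p in lactation, where the intervals of the last 2 overlap, and in involution miR-22-5p stood above miR-21-3p.

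**Figure D1:**
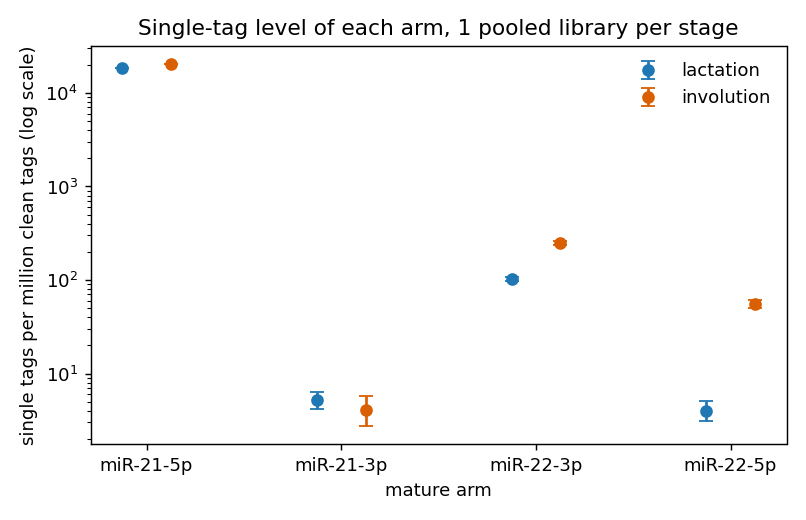
Single tags per 1000000 clean tags (log axis) of each mature arm in the lactation (blue) and involution (orange) library, with 95% exact Poisson intervals as bars; there is 1 pooled library per stage. miR-21-5p sits near 18633.5 and 20263 at both stages, whereas miR-22-5p goes from 3.99 in lactation to 54.8 in involution.

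The arm balance of miR-22 differed between the libraries. The 5p arm made up 3.74% of single miR-22 tags in lactation (2.94 to 4.69%) and 17.98% in involution (16.4 to 19.6%), intervals that do not overlap. For each miR-22-5p tag there were 25.7 miR-22-3p tags in lactation and 4.56 in involution. This share is taken within a library and does not depend on how the libraries are scaled, but it counts single tags only. When the joined tags of each arm are counted with the single ones, miR-22-3p had a ratio of 1.04 (0.989 to 1.10) and miR-22-5p of 13.6 (10.6 to 17.7). With tags identical to the 22-nt form alone, miR-22-5p had 23 tags in lactation and 200 in involution, a ratio of 21.2. Unlike ratios of 5p and 3p arms were not particular to miR-22. They were 4.18 and 0.773 for miR-126, 1.35 and 0.585 for miR-140, and 1.78 and 0.966 for miR-151. The miR-30 family was at 0.512 and miR-30-3p at 0.739. Arms were closer for miR-142 (3.40 and 3.30), miR-199 (1.26 and 1.39) and miR-423 (1.27 and 1.22).

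Of the miRNAs measured in the same way, 106 of 116 reached 10 TPM in at least 1 library. The rule for a call asked for a ratio of 2 or more, or of 0.5 or less, with the entire interval on that side of 1. On these terms 44.3% were higher in involution (47 miRNAs) and 3.77% lower (4 miRNAs). Among the members miR-22-3p and miR-22-5p were counted as higher, miR-21-5p as neither, and miR-21-3p did not reach the level. The median ratio over the 106 was 1.70, so the ratio of miR-21-5p was below it and those of both miR-22 arms above it. A higher ratio was found for 70 miRNAs than for miR-21-5p, for 42 than for miR-22-3p and for 7 than for miR-22-5p. The split depended on the scaling, with 35 higher and 27 lower under median-of-ratios factors, and 40 and 16 under TMM factors, which moved every log2 ratio by -0.83 and -0.40. Under these scalings miR-22-3p was at 1.37 and 1.85 and no longer counted as higher, whereas miR-22-5p was at 7.74 and 10.4 and remained so.

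**Figure D2:**
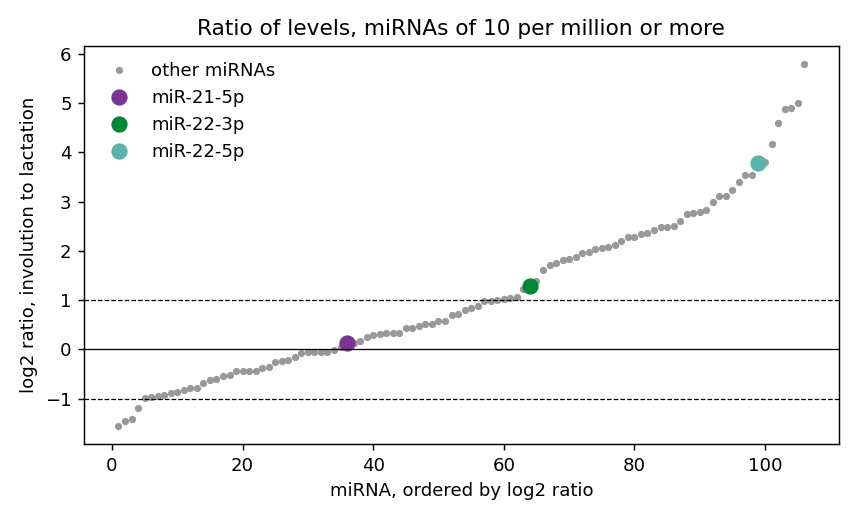
log2 ratio of involution to lactation (vertical axis) for the 106 miRNAs of at least 10 TPM in a library, ordered from lowest to highest, with dashed lines at 2-fold. miR-21-5p (purple) lies near 0 at 0.12, miR-22-3p (green) just above the upper line at 1.28 and miR-22-5p (turquoise) near the top at 3.78.

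The miRNAs with ratios nearest to that of miR-21-5p, among 24 others of at least 1000 TPM in both libraries, were miR-320 (ratio 1.09), miR-143 (1.03) and miR-151-3p (0.966). Nearest to miR-22-3p, among 25, were the miR-141 family, counted by its reference sequence only (2.60), miR-101 (2.07) and miR-26 (3.05). With 2 libraries these are near ratios and no more.

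miR-21-5p belongs to a list of miRNAs known to be induced by injury or inflammation. None of the 4 measured seeds passed the rule, and the median log2 ratio was 0.03, against 0.76 over all 106 miRNAs. By the reference sequences miR-21-5p led the list. Just behind was miR-146, a miRNA that restrains Toll-like receptor signalling, at 18388 and 17715 TPM (ratio 0.963). By all tags with the seed, miR-146 stood above miR-21-5p in lactation, at 19460 against 18788 TPM. In involution miR-21-5p had 150889 such tags and miR-146 137649. miR-155, which is known from activated leukocytes, was at 1152 and 648 (0.563). The miR-221 family, counted by its reference sequence only, was at 65.5 and 129 (1.98). The ratios of this list thus lay on both sides of 1, and with median-of-ratios or TMM factors the median was -0.79 or -0.37 and 1 seed, miR-155, was lower. When scaled to all tags assigned to a miRNA, or to totals without the most abundant miRNA, 1 seed, the miR-221 family, was higher and none lower.

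The 3′ ends of miR-21-5p were spread over 3 main forms, and a smaller share ended at the 22-nt form in lactation than in involution. The set is shown because these 3 forms made up most of the tags of the arm at both stages.
miR-21-5p, 22 nt: tAGCTTATcagactgatgttga
miR-21-5p, 23 nt: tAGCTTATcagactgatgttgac
miR-21-5p, 21 nt: tAGCTTATcagactgatgttg
The 22-nt form had 121482 tags in lactation, or 36.2% of the arm, and 77469 in involution, or 51.8%. The 23-nt form, which adds C, had 109129 (32.5%) and 33173 (22.2%), and the 21-nt form 77313 (23.0%) and 27337 (18.3%). The next most abundant forms in lactation added CA (3.35% against 2.77% in involution) and CT (2.03% against 1.03%). A single added A went the other way, at 0.954% in lactation and 2.03% in involution.

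Counted over all single tags, miR-21-5p was longer than the 22-nt form at the 3′ end in 39.99% of tags in lactation (39.8 to 40.2%) and 28.9% in involution (28.7 to 29.1%). It was shorter in 23.8% (23.6 to 23.9%) and 19.2% (19.0 to 19.4%). Over the 56 miRNAs that had 1000 or more tags at each stage the median longer share was 11.1% in lactation and 16.1% in involution. For 34 of the 56 the share was larger in involution. miR-21-5p thus went against the greater number, and ranked 54 of 56 by the difference of involution minus lactation. Its 5′ end was nearly fixed: 0.274% of tags lacked 1 or 2 bases in lactation (0.257 to 0.292%) and 0.300% in involution (0.273 to 0.329%).

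The 3′ end of miR-22-3p was more uniform than that of miR-21-5p. The 22-nt end was found in 79.8% of single tags in lactation (77.9 to 81.6%) and 83.8% in involution (82.0 to 85.4%). Longer tags made up 4.86% (3.93 to 5.94%) and 7.36% (6.21 to 8.65%). Shorter tags made up 15.3% (13.7 to 17.1%) and 8.87% (7.62 to 10.3%), and among these the form that lacks 3 bases, shown here, differed most.
miR-22-3p, 19 nt: aAGCTGCCagttgaagaac
This form had 197 tags in lactation, or 10.6% of the arm, and 51 in involution, or 2.76%. Tags that lacked 1 or 2 bases at the 5′ end were 0.540% and 0.595%, with overlapping intervals. miR-22-5p differed in its commonest form: the 21-nt form led in lactation with 40 of 72 tags (55.6%), and the 22-nt form led in involution with 200 of 405 tags (49.4%). Its share of tags shorter at the 3′ end was 59.7% (47.5 to 71.1%) against 39.0% (34.2 to 43.95%), again without overlap. By the difference of involution minus lactation, miR-22-3p ranked 46 of the 56 miRNAs for shorter tags and 24 for longer tags. Over the 56, the shorter share differed by -50.4 to 21.9 points, with a median share of 18.7% at each stage. miR-22-5p, with 72 lactation tags, was not among the 56.

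**Figure D3:**
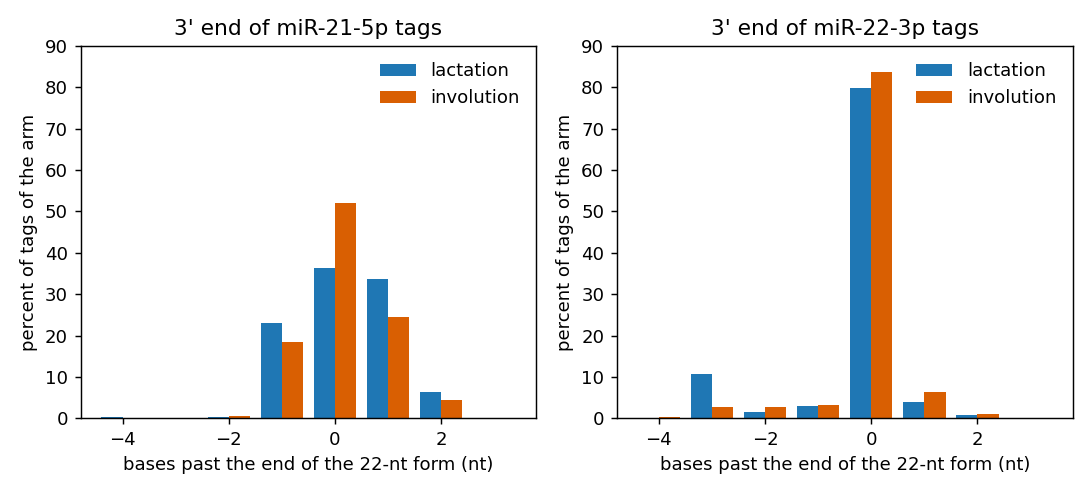
Percent of single tags of miR-21-5p (left) and miR-22-3p (right) by the position of the 3′ end, in bases past the end of the 22-nt form, in lactation (blue) and involution (orange). miR-21-5p spreads over 3 positions, with 36.3% and 51.9% at 0, whereas miR-22-3p has 79.8% and 83.8% at 0 and a second lactation peak of 10.7% at 3 bases short.

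Joined tags that held either miRNA were far more frequent in the lactation library than in the involution library. In lactation 3099 tags of 36 to 44 nt held miR-21, or 172 TPM (166 to 178), against 19 in involution, or 2.57 TPM (1.55 to 4.02), which is 66.8-fold lower (42.7 to 111). miR-22 was held by 2469 tags in lactation, or 137 TPM (132 to 142), and by 2 in involution, or 0.271 TPM (0.0328 to 0.978). The ratio for miR-22 rests on those 2 tags and was 0.00198 (0.000239 to 0.00715). It ran from 0.000692, per single tag of miR-22, to 0.00303, without the most abundant sequence of each library. In lactation 2394 tags held both miRNAs. In involution 2 did, 1 with miR-22-3p before miR-21-5p and 1 with miR-21-5p before miR-22-5p. Tags with either member made up 36.5% of the 8704 lactation tags of 36 to 44 nt and 1.88% of the 1008 involution tags.

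The 14-base limit cut through a thin part of the range. In lactation 10 tags held exactly 13 bases of miR-21 and 3 exactly 14, and 20 tags held exactly 13 bases of miR-22 and 7 exactly 14. No involution tag was that close to the limit. The protocol in the labels names a size range of 18 to 30 nt, and tags over 30 nt made up 0.208% of lactation and 0.135% of involution tags. The libraries also differed in reads removed as 5′ adaptor contaminants, at 0.0505% of high-quality reads in the log matched to lactation and 14.03% in that matched to involution. The part of this difference in the joined counts was not tested. The size of the miR-21 difference depended on the definition: it was 300.9-fold when a second miRNA stretch was required, which left 4 involution tags, 34.6-fold without the most abundant sequence of each library, and 27.3-fold for tags of 31 to 44 nt.

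A few sequences carried most of the joined tags, and the most abundant of them are printed because they show the order and the junction. Capitals mark the seed of each miRNA.
miR-22-3p then miR-21-5p, 44 nt: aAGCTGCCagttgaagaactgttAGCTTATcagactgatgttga
miR-22-3p then miR-21-5p, 43 nt: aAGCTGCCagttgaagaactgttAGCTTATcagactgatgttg
miR-22-3p lacking its first base, then miR-21-5p, 44 nt: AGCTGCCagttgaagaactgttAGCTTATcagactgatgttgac
miR-21-5p then miR-21-5p, 44 nt: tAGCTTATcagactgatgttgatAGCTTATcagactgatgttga
The first of these had 1663 tags in lactation, or 92.2 TPM (87.8 to 96.8), and 1 in involution. The same library held 1472 tags of the 22-nt form of miR-22-3p on its own, so this joined sequence outnumbered the commonest single form of its first miRNA. The 43-nt sequence had 512 lactation tags, the form that lacks the first base 133, and the repeat of miR-21-5p 194. In involution the repeat of miR-21-5p was found 1 time and the other 2 were not found, which allows up to 0.406 TPM each.

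The pair was read in 1 order. miR-22-3p followed directly or nearly so by miR-21-5p was read in 2395 lactation tags, of 50 distinct sequences, and the reverse order in 0. This is 1 tag more than held 14 bases of both reference arms, since stretches were also matched to other abundant tags with the same seed. Of the 2395, 2375 (99.2%, 98.7 to 99.5%) had the complete 3′ end of the 22-nt miR-22-3p immediately before the first base of miR-21-5p. The tag began at base 1 of miR-22-3p in 2218 and at base 2 in 155. Tags of 44 nt, the longest length in either library, numbered 1837 of the 2395, and 536 had 43 nt. A miR-21-5p stretch of more than 22 nt could therefore not be read after a complete miR-22-3p, whereas the form that lacks the first base ends in the added C of the 23-nt miR-21-5p. Over all joined tags with a readable pair, miR-22-3p was first in 2409 and second in 3, whereas miR-21-5p was first in 539 and second in 2896.

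Across all tags of 36 to 44 nt with 2 miRNA stretches, 4528 in lactation and 84 in involution, a member was present in 67.2% (65.8 to 68.5%) and 13.1% (6.72 to 22.2%). miR-22-3p then miR-21-5p alone gave 52.9% of those lactation tags, and miR-21-5p repeated gave another 414 tags. The remaining 1486 lactation tags without a member were spread over 353 ordered pairs, the most frequent of which, the miR-148 family repeated, had 127. Of the repeats of miR-21-5p, 307 of 414 (74.2%) had the 22-nt end directly before the first base of the second copy. In involution each of these 2 member pairs was found in 1 tag. Joined tags without a member were also less frequent in involution, at 82.4 TPM (1486 tags) against 9.88 TPM (73 tags), which is 8.34-fold lower (6.59 to 10.7).

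**Figure D4:**
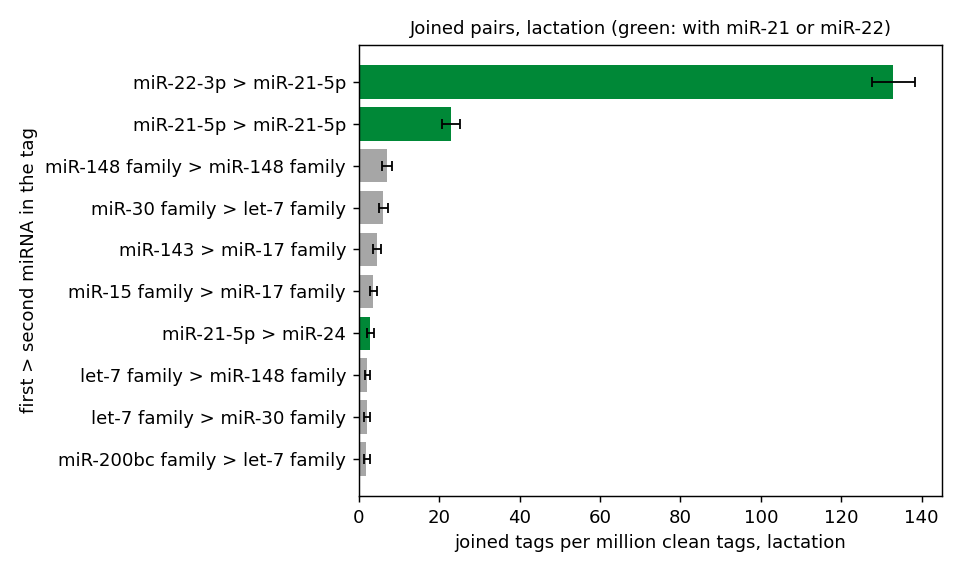
Joined tags per 1000000 clean tags in the lactation library for the 10 most frequent ordered pairs, first miRNA before second, with 95% exact Poisson intervals; green bars hold miR-21 or miR-22. miR-22-3p then miR-21-5p stands at 133 TPM, against 23.0 for miR-21-5p repeated and 7.04 for the most frequent pair without a member.

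Other partners of the members were far less frequent. After miR-22-3p and miR-21-5p itself, miR-21 was joined most often to miR-24 (2 lactation tags with miR-24 first, 52 with it second), miR-26 (18 and 11) and miR-30-3p (0 and 22). In involution miR-26 followed miR-21 in 3 tags, and neither miR-24 nor miR-30-3p was joined to it. miR-22 had 7 lactation tags with miR-24 second, and 2 tags each with the miR-103 and miR-15 families. Of the 3174 lactation tags that held a member, 3042 (95.8%) could be read as 2 miRNAs, against 11 of 19 in involution.

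The joined tags of miR-22-3p were not in proportion to its level. In lactation 57.1% (55.6 to 58.6%) of all miR-22-3p tags, single and joined, were joined, against 0.0541% (0.00137 to 0.301%) in involution. For miR-21-5p the shares were 0.913% (0.881 to 0.946%) and 0.0127% (0.00764 to 0.0198%). Single and joined miR-22-3p together came to 239.6 TPM in lactation and 250.3 in involution, where single tags alone were at 103 and 250.2. Per 1000000 tags with the same seed, miR-22-3p had 1158690 joined tags in lactation and miR-21-5p 9142, whereas the 56 other seeds of at least 100 TPM had a median of 973 and a highest value of 33873, for miR-23. The let-7 family, with 3763928 seed tags, had 1037 joined tags, or 275.5 per 1000000. In involution the rates were 126 for miR-21-5p and 512 for miR-22-3p, the latter from 1 tag, and the median of the 56 other seeds was 107. The lower rate in involution was thus shared by 52 of the 56. For miR-21-5p it was 72.6-fold lower and for miR-23 (33873 against 540.2) 62.7-fold. For the 40 of the 56 with joined tags in both libraries, miR-23 included, the median was 6.29-fold. That median leaves out seeds with no joined tag in involution, such as the miR-99 family, which had 101 in lactation.

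**Figure D5:**
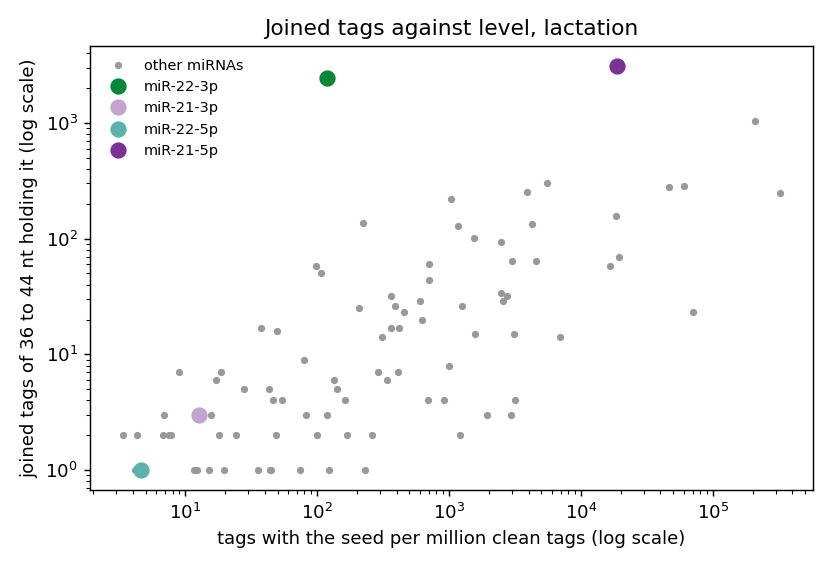
Joined tags of 36 to 44 nt (log axis) against the level of tags with the same seed in lactation (TPM, log axis). Each point is 1 seed, and the 25 seeds with no joined tag are not drawn. Some of the 25 were too rare to be searched for. miR-22-3p (green, 2468 joined tags) lies far above other seeds of its level, and miR-21-5p (purple, 3097) is the highest point.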

How the data were processed

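Small RNA of goat mammary gland was sequenced in 2 pooled libraries, 1 per stage. The authors deposited raw counts: each distinct clean tag with its length and read count, 18031615 tags in lactation and 7385833 in involution. Per the labels' protocols, RNA was size-selected, ligated to both adaptors, amplified and sequenced; the sources used here give no aligner or build. The authors' filtering logs, which also hold counts, were tied to a library because the clean read number equals its total.

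No mature miRNA table was used. For each of 116 seeds of 7 bases, written from general knowledge, 1 reference was used. It was the most abundant tag of 18 to 26 nt over both libraries, with equal weight per 1000000 tags. miRNAs that were listed singly but share a seed (such as miR-17 and miR-93) had 1 entry. Levels count only tags that match the reference without mismatch, so relatives with the same seed that differ within the matched bases are left out. The let-7 family had 1157455 lactation tags by this rule, against 3763928 with its seed. Joined tags were also matched to other abundant tags with the same seed. The single-tag rule of the members was applied to all. Assigned tags were 66.4% of lactation and 62.7% of involution tags, and 0 tags fitted more than 1 miRNA. Levels are tags per 1000000 clean tags (TPM). A count of 0 allows 3 counts, or 0.166 and 0.406 TPM. Intervals are 95%: exact Poisson for levels, Clopper-Pearson for shares, conditional Clopper-Pearson for ratios. No test between stages was possible.

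Named miRNAs are the 4 arms, the 3 nearest ratios, the 5 leading partners, the most abundant single and joined tags, and the miRNAs of the inflammation list. miR-23, miR-99, miR-148, let-7, the marker miRNAs, the arm pairs of other miRNAs and the substituted forms were named after their values were seen. A further list of miRNAs is not reported here. The members and lists were chosen with earlier results of these data known. The procedure was tested on simulated counts and joined tags. Python 3.11.15, numpy 2.4.6, scipy 1.17.1, matplotlib 3.10.9, R 4.3.3 and edgeR 4.0.16 (TMM factors only) were used.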

Additional observations from a re-analysis of the deposited data

Results flagged for a closer look

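A form of miR-21-3p outside the matching rule was present in lactation only as counted here: 20 single tags carried G6C, counted from 1 at the 5′ end of the reference with the base of the reference first, and 0 did in involution, which allows up to 0.406 TPM. By the first 18 bases, the unchanged form had 150 tags in lactation and 48 in involution, so G6C made up 11.8% of the lactation sum (7.34 to 17.6%). All 3 lactation joined tags with a miR-21-3p stretch and this position carried G6C, and 0 carried the unchanged base. No goat reference sequence was used here, so whether these tags come from goat miR-21-3p or from another source was not tested. It was noticed because these tags belong to no comparison of the report.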

How the results depend on the processing

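Of 102 recomputed values for 16 results, 92 were counted as unchanged. For ratios and shares this meant the same direction and the same side of the rule or of interval overlap. For counts of miRNAs it meant a limited change, so that 35 and 53 against 47 were included. miR-21-3p stayed under the 10 TPM needed for a call, so no alternative could bring it past the rule. The ratio of miR-21-5p went to 0.613 with median-of-ratios factors and 0.824 with TMM factors. With the same factors miR-22-3p was at 1.37 and 1.85, and with joined tags added to single tags, an alternative chosen after seeing the data, at 1.04. miRNAs counted as higher numbered 26 with a filter of 100 TPM, against 47. Those counted as lower numbered 27 with median-of-ratios factors, 16 with TMM factors, 9 with identical tags only and 1 with the filter of 100 TPM, against 4. The factors multiply every ratio alike, and the filter left 71 miRNAs. The cause of the 9 lower calls was not tested. For miR-21-3p the 2 factors gave 0.444 and 0.597. The ratio for joined miR-22 ran from 0.000692 to 0.00303. The count of joined tags with miR-21 was 27.3-fold to 300.9-fold lower in involution over its alternatives: it was highest with a second miRNA stretch required, when 4 involution tags were left, 34.6-fold without the most abundant sequence of each library, and 27.3-fold when tags of 31 to 44 nt were used. miR-22-5p kept a ratio of 7.74 to 21.2, the highest with identical tags only. No paired analysis was possible because each stage has 1 library, whose number was given in accession order. Depth limits miR-21-3p, with 30 involution tags, and joined miR-22, with 2.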

Other observations

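Single-base forms of the members differed between the libraries in a few places, all chosen after their values were seen. Positions are counted from 1 at the 5′ end, with the base of the reference first. miR-22-3p with T22C had 190 tags in lactation, or 10.9% of its 22-nt tags with at most 1 substitution, and 40 in involution, or 2.46%. For miR-21-5p the tags with 1 substitution made up 1.27% in lactation and 1.10% in involution.

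In the most abundant joined sequence of lactation, A34C, which is A12C of miR-21-5p, was the most frequent single substitution, with 18 tags or 1.04% (0.616 to 1.63%). The same change made up 0.0284% (0.0198 to 0.0396%) of single 22-nt miR-21-5p tags of that library. The next most frequent, A14C of miR-22-3p, was not more frequent in joined than in single tags, at 0.576% (0.277 to 1.06%) against 0.979% (0.571 to 1.56%). A38C, which is A16C of miR-21-5p, had 8 joined tags or 0.461% (0.199 to 0.907%), against 0.0228% (0.0151 to 0.0329%) of single tags. C31A and T41C, also in miR-21-5p, were at 0.288% and 0.173% of joined and 0.0861% and 0.0366% of single tags, with overlapping intervals. Changes from A to C made up a median 5.24% of single-substitution tags in lactation and 1.14% in involution over 56 miRNAs, a count that includes related miRNAs differing by 1 base. No tag in either library held 16 bases of the reverse complement of any of the 4 arms.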
